A study of Rattus norvegicus with 24 samples.

Results

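The effect of AH236 on the RNA of rat cortical cells exposed to glutamate was described by setting the 3 AH236 libraries in glutamate medium against the 3 DMSO libraries in the same medium. These libraries were chosen by their titles and make up 6 of the 24 libraries of the study. The study crossed AH236, AH609, IS141 and DMSO, the solvent control, with glutamate medium and fresh growth medium, which makes 8 groups of 3 libraries. The cells had been grown on coated 6-well plates for 8 days. All glutamate groups, controls included, then received glutamate at 250 µM, while the medium groups received fresh growth medium, and the wells were imaged for 4 h. The labels give no dose, timing or description for AH236, AH609 or IS141, and do not say when RNA was taken. They do not say either whether the libraries of a group came from separate cultures. The p-values then measure only how far these libraries spread, which may be technical. The labels name no rat strain or age.

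Glutamate is the main excitatory transmitter of the cortex. Prolonged exposure overactivates its receptors, of which the NMDA type lets in calcium, and this overload can kill neurons, a process called excitotoxicity. The calcium signal is also carried to the nucleus by kinases, enzymes that phosphorylate other proteins, where it switches on activity-regulated genes and their feedback inhibitors. According to its title, the study asked about kinases in excitotoxicity, and the comparison here asks how RNA levels in glutamate-exposed cells differed when AH236 was present.

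The deposited table identifies genes by Ensembl rat IDs that the sources used here do not pair with names, and 0 IDs could be matched to a symbol. Pathways and cell types could therefore not be described, and the label of cortical cells could not be checked against markers. The genes are described instead by level, by size of change, by their response to glutamate in cultures with other agents, and by the values of 4 IDs. The 6 libraries held 23906256 to 34997849 counts. Within groups, log2 levels of the 15908 genes tested correlated at 0.99261 to 0.99410 across genes, against 0.99000 to 0.99308 between the AH236 and DMSO libraries. On the first principal component of the 12 glutamate libraries (16.6% of the variance), AH236 replicates 1 to 3 scored -18.2, -22.7 and -16.8. The other 9 libraries scored -4.96 to 18.8, so the AH236 libraries stood apart from every other group on this component. On the second component (14.9%), DMSO replicates 1 to 3 scored -23.9, -20.2 and -13.6, apart from all the agents. There AH236 scored 1.96 to 4.05, AH609 2.03 to 6.92 and IS141 7.68 to 16.35, so AH236 and AH609 overlapped. In fresh medium, DMSO replicate 1 stood apart from the other DMSO libraries. Genes raised at least 4-fold by glutamate, as defined further on, took 0.457% of its counts, against 0.232% and 0.236% in the other DMSO medium libraries. Fold changes and medians in medium are given with and without it, as are calls in glutamate that it moves through the shared estimate of spread.

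AH236 changed the RNA of glutamate-exposed cells at many genes, mostly by small amounts. With edgeR's quasi-likelihood test and Benjamini-Hochberg adjustment, 1633 of 15908 genes (10.3%) passed an adjusted p of 0.05 in AH236 against DMSO. Of these, 981 (6.17%) were higher and 652 (4.1%) were lower with AH236. The median called gene differed by 0.29 on the log2 scale, and the smallest called difference was 0.12. Only 12 higher and 31 lower genes differed by 2-fold or more. In bulk RNA, fewer cells of a type and less RNA per cell cannot be told apart.

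Among the called genes, large changes were more frequent among the falls. The genes called lower stood at lower levels, as described below, where standard errors are larger and a change must be larger to pass. How much of the difference in size this makes was not tested. Among the genes called higher, 913 of 981 differed by under 1.5-fold, 56 by 1.5 to 2-fold, 12 by 2 to 4-fold and 0 by more. Among those called lower, 537 of 652 differed by under 1.5-fold, 84 by 1.5 to 2-fold, 26 by 2 to 4-fold and 5 by 4-fold or more. All 3 AH236 libraries lay above all 3 DMSO libraries for 970 of the 981, and below them for 635 of the 652. Over all genes tested, without regard to the call, the libraries were separated in this way at 2519 genes (15.8%) above and 2214 (13.9%) below.

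The number of calls depended on single libraries and the split between rises and falls on the scaling. Leaving out DMSO glutamate replicate 1 gave 801 calls. Leaving out AH236 glutamate replicate 1 gave 966, and leaving out replicate 3 of the same group gave 876. Taking DMSO medium replicate 1, which is not among the 6 libraries, out of the shared fit gave 2530 calls, which include all 1633. DESeq2, which gave an adjusted p to 12804 genes, made 1773 calls, with 5 higher and 14 lower genes at 2-fold or more. When each library was scaled by its total alone, 425 genes were called higher and 1435 lower. The TMM factors, which set the scaling used elsewhere, were 0.898 to 0.914 in the AH236 libraries and 0.934 to 0.973 in the DMSO libraries. The median over all genes was -0.01 on the log2 scale with TMM and -0.08 with totals.

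**Figure D1:**
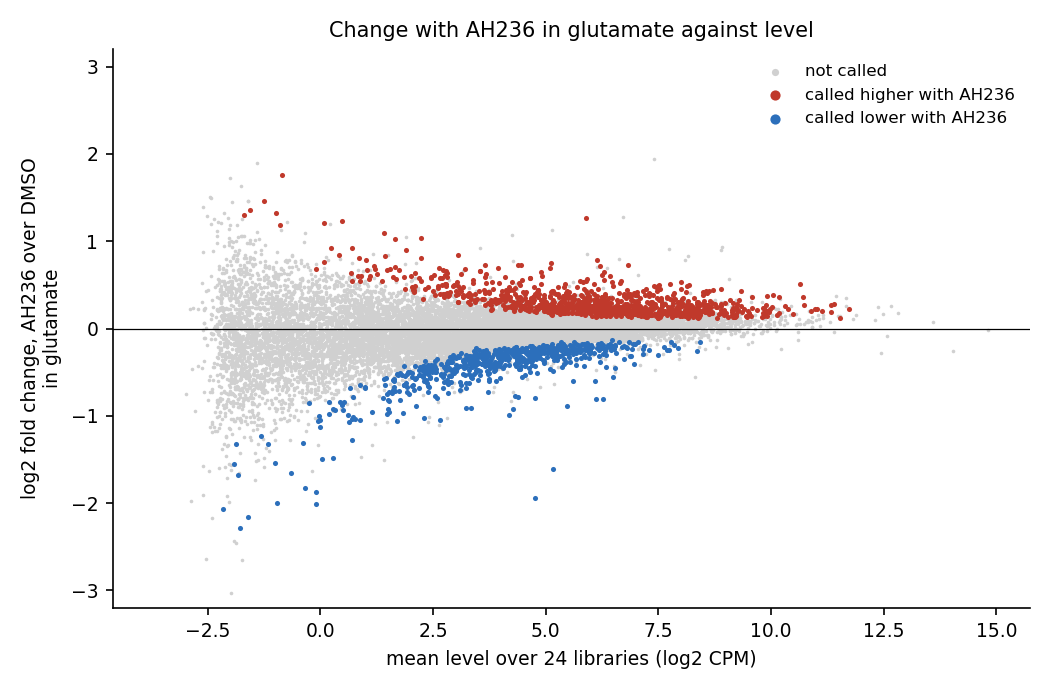
Log2 fold change, AH236 over DMSO in glutamate, against the mean level of each gene over all 24 libraries (log2 CPM); each point is 1 of 15908 genes, coloured where called higher or lower, and 3 points lie beyond the vertical axis. The 981 genes called higher lie mostly at high levels and small changes, whereas the 652 called lower reach lower levels and larger changes.

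The genes called higher stood at higher levels than those called lower. The median level over the 24 libraries, in TMM-scaled CPM, the counts of a gene per unit of scaled library size, was 74.2 CPM for genes called higher, 15.97 CPM for genes called lower and 14.2 CPM for all genes tested. Above 100 CPM, 397 of 2126 genes (18.7%) were called higher and 26 (1.22%) lower. Between 10 and 100 CPM, 482 (7.1%) were higher and 415 (6.11%) lower of 6792. Between 1 and 10 CPM the balance was the other way, with 95 (2.15%) higher and 191 (4.32%) lower of 4417. Under 1 CPM, where the median standard error of a log2 fold change was 0.42 against 0.05 above 100 CPM, 7 were higher and 20 lower of 2573.

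The same tilt was present in the libraries without regard to the calls. The median log2 fold change was 0.07 above 100 CPM, -0.00 between 10 and 100 CPM, -0.07 between 1 and 10 CPM and -0.11 under 1 CPM. Without DMSO glutamate replicate 1 the last of these was -0.06, level with -0.06 between 1 and 10 CPM. Above 100 CPM, all 3 AH236 libraries lay above all 3 DMSO libraries for 807 of 2126 genes and below them for 100. Over all genes tested the shares were 15.8% above and 13.9% below. Between 10 and 100 CPM, the libraries lay above for 1189 and below for 1158 of 6792 genes. Between 1 and 10 CPM, they lay above for 379 and below for 754 of 4417, and under 1 CPM for 144 and 202 of 2573. With scaling by totals alone the 4 medians were -0.00, -0.08, -0.15 and -0.18, so the order held while the value above 100 CPM lost its positive sign. In fresh medium, whose libraries are different ones, the medians of AH236 against DMSO were 0.05, 0.00, -0.05 and -0.10 from the highest levels to the lowest, and 0.04, 0.00, -0.04 and -0.03 without DMSO medium replicate 1.

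**Figure D2:**
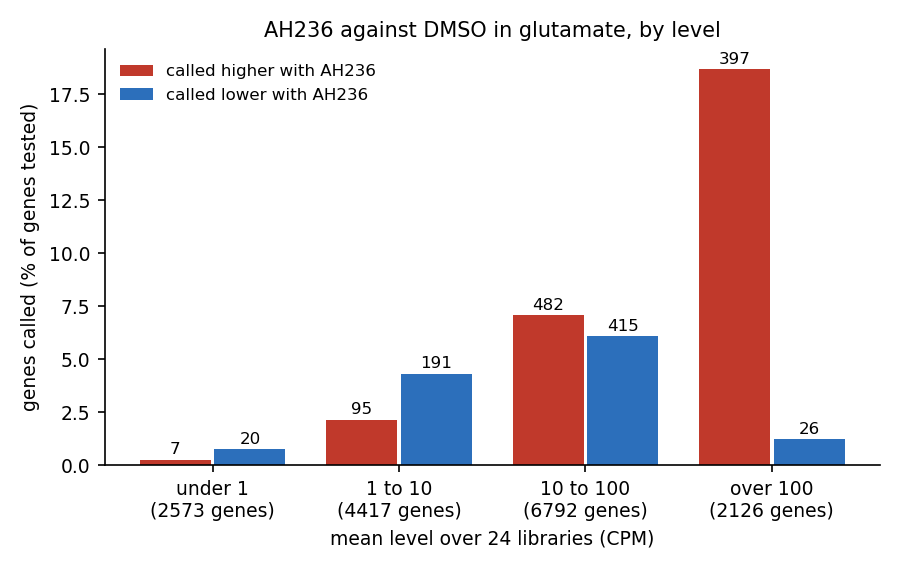
Percent of genes called higher or lower in AH236 against DMSO in glutamate, in 4 ranges of mean CPM over the 24 libraries; the number above each bar is the count of genes. The share called higher climbs to 18.7% above 100 CPM, where 1.22% were called lower.

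Fewer genes were detected with AH236 in glutamate. At a common depth of 22509400 counts, the expected number of genes with a count was 19428, 19495 and 19408 in AH236 replicates 1 to 3 in glutamate, against 19942, 19556 and 19777 in DMSO replicates 1 to 3. The groups did not overlap, although AH236 replicate 2 and DMSO replicate 2 lay close. The smallest two-sided p that an exact permutation test allows with 3 against 3 libraries is 0.1, so this difference cannot pass 0.05. In medium the groups overlapped, at 19024, 19788 and 19053 with AH236 and 19442, 19538 and 19379 with DMSO. Without correction for depth, 80 genes had counts in all 3 DMSO libraries and 0 in all 3 AH236 libraries, with no single count above 7. The reverse held for 24 genes, with no count above 6. None of these genes passed the filter on low counts, and no fold change is given for them. In glutamate, DMSO replicates 1 to 3 held 29643812, 28708191 and 34997849 counts, against 28169455, 23906256 and 31661697 in AH236 replicates 1 to 3. Deeper libraries leave fewer genes at 0, and how much of the gap between 80 and 24 goes with depth was not tested.

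Genes higher with AH236 were mostly genes raised by glutamate in cultures with the other agents, and genes lower with AH236 mostly genes lowered there. To sort genes by that response, glutamate against medium was taken from the IS141 and AH609 cultures, which hold none of the 6 compared libraries, though filter, scaling and dispersion came from the shared fit. IS141 and AH609 were present in those cultures, so the classes hold the response to glutamate together with any effect of these agents on it, and these cannot be told apart here. In these cultures 11266 genes (70.8%) were called, of which 5556 genes (34.9%) were raised and 5710 (35.9%) were lowered by edgeR's quasi-likelihood test with Benjamini-Hochberg adjustment. Of the 981 genes higher with AH236, 670 (68.3%) were among those raised by glutamate and 148 (15.1%) among those lowered. Of the 652 genes lower with AH236, 518 (79.4%) were among those lowered by glutamate and 54 (8.28%) among those raised.

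The 877 genes that glutamate lowered at least 2-fold moved furthest down with AH236. Their median log2 fold change was -0.25, and 147 (16.8%) were called lower with AH236 and 7 (0.798%) higher. Against the mean of the DMSO glutamate libraries, their median was -0.24, -0.24 and -0.21 in AH236 replicates 1 to 3, and 0.06, -0.03 and -0.02 in DMSO replicates 1 to 3. Together they took 0.514%, 0.495% and 0.503% of counts in the AH236 libraries, against 0.643%, 0.580% and 0.592% in the DMSO libraries. All AH236 values lay below all DMSO values on both measures, and the smallest exact p is again 0.1. IS141 libraries in glutamate stood at 0.507% to 0.539% and AH609 libraries at 0.505% to 0.548%. The class was chosen for low values in those same libraries, so these shares cannot show whether the fall is shared. In direct comparison with IS141, 25 of the 877 genes were higher and 24 lower with AH236, against 5.61% and 3.04% of all genes tested. The choice of the class used the IS141 libraries, so it bears on this comparison too. Among the 4833 genes lowered by under 2-fold, the median was -0.06, with 371 (7.68%) called lower and 141 (2.92%) higher.

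Genes raised by glutamate moved up. The 437 genes raised at least 4-fold had a median log2 fold change of 0.17, with 53 (12.1%) called higher and 2 (0.458%) lower. Their share of counts was 2.41%, 2.45% and 2.45% in AH236 libraries and 2.20%, 2.31% and 2.19% in DMSO libraries, without overlap. It was 2.26% to 2.43% with IS141 and 2.40% to 2.53% with AH609. The class was chosen for high values in those same libraries, so these shares cannot show whether the rise is shared. The 988 genes raised 2 to 4-fold had a median of 0.12, with 142 (14.4%) called higher and 8 (0.81%) lower, but their shares of counts overlapped, at 4.85%, 5.05% and 4.83% in AH236 libraries and 4.65%, 4.65% and 4.87% in DMSO libraries. The 4131 genes raised by under 2-fold had a median of 0.06, with 475 (11.5%) called higher and 44 (1.07%) lower. The 4642 genes with no call for glutamate had a median of -0.01. With scaling by totals alone, the class raised by under 2-fold changed sign to -0.02, and the classes raised 2 to 4-fold and at least 4-fold kept theirs at 0.05 and 0.09.

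Level and glutamate response both went with the direction of the difference. Among genes raised by glutamate, 269 of 1139 (23.6%) above 100 CPM were higher with AH236 and 3 were lower. Among genes lowered by glutamate, 331 of 2951 (11.2%) between 10 and 100 CPM were lower with AH236 and 73 were higher. Above 100 CPM, however, the lowered genes were more often higher with AH236 (58 of 544, 10.7%) than lower (21, 3.86%), and their median was 0.03. Among abundant genes with no call for glutamate, 70 of 443 were higher and 2 lower. How far level and glutamate response each set the direction was not tested.

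In fresh medium, the class medians lay closer together than in glutamate, a gap that was not tested. The genes lowered at least 2-fold by glutamate had a median AH236 difference of -0.10 in medium (-0.09 without DMSO medium replicate 1), and those raised under 2-fold had 0.02 (0.03 without it). The class raised at least 4-fold had a median of -0.24 in medium with all libraries and 0.14 without DMSO medium replicate 1, which is the library that held 0.457% of its counts in that class. In this class, then, the direction of the difference in medium rests on 1 library. For the class raised 2 to 4-fold the medium median was -0.00, and 0.07 without that library. With that library left out, the medium medians climbed across the classes in the same order as in glutamate, from -0.09 to 0.14.

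**Figure D3:**
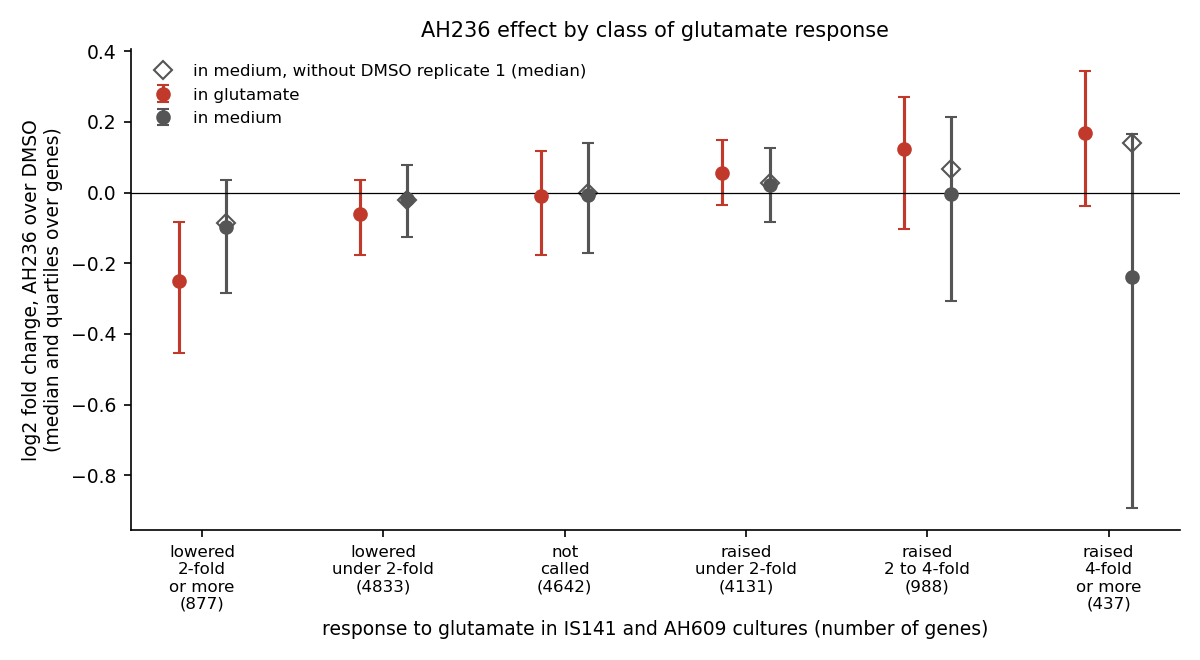
Log2 fold change of AH236 over DMSO for 6 classes of genes by their response to glutamate in IS141 and AH609 cultures, in glutamate and in medium; points are medians and bars are quartiles over genes, and open diamonds are medium medians without DMSO replicate 1. In glutamate the medians climb from -0.25 in the class lowered at least 2-fold to 0.17 in the class raised at least 4-fold, while the last medium median moves from -0.24 to 0.14 when that library is left out.

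The AH236 difference in glutamate was set beside that in fresh medium, which uses other libraries for both AH236 and DMSO. In medium, 1671 genes (10.5%) were called, 883 higher (5.55%) and 788 lower (4.95%). The count was 934 and 1048 without AH236 medium replicates 1 and 3, and 87 with the compared libraries fitted alone. Of the 981 genes higher with AH236 in glutamate, 814 (83.0%) had a fold change above 0 in medium, against 48.6% of all genes tested, and 359 (36.6%) were also called higher, against 5.55% of all genes. Of the 652 lower genes, 512 (78.5%) had a fold change below 0 in medium, against 51.3% of all genes, and 129 (19.8%) were also called lower, against 4.95%. All 3 AH236 medium libraries lay above all 3 DMSO medium libraries for 459 of the 981, against 11.4% of all genes, and below them for 227 of the 652, against 11.1%. The medium medians were 0.13 and -0.12 (0.13 and -0.11 without DMSO medium replicate 1), closer to 0 than 0.26 and -0.35 in glutamate. The genes were chosen by their glutamate values, which moves the glutamate medians away from 0. The gap therefore cannot show a weaker effect in medium. Only 15 of the higher genes were called lower in medium and 5 of the lower genes were called higher. Without DMSO medium replicate 1, 314 of the 981 were called higher in medium, against 5.33% of all genes, and 104 of the 652 lower, against 3.39%.

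For a minority of genes the AH236 difference itself differed between the media. The test of the difference called 246 genes (1.55%), 140 more positive in glutamate (0.88%) and 106 more negative (0.666%). Of the 981 genes higher in glutamate, 80 were among them, 78 with a more positive value in glutamate. Of the 652 lower genes, 52 were among them, 51 with a more negative value. Both sets were chosen by their glutamate values, which enter the difference, so these signs were largely set by the choice. The count rested on several libraries: it was 496 without DMSO medium replicate 1, 487 and 385 without replicates 2 and 3 of that group, 163 when DMSO glutamate replicate 2 was dropped and 77 when replicate 1 was. Without an AH236 library, it lay at 82 (glutamate replicate 3), 112 (glutamate replicate 1), 140 (glutamate replicate 2), 93 (medium replicate 1), 141 (medium replicate 2) and 118 (medium replicate 3). With the 12 libraries of these 4 groups fitted alone, it was 18.

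**Figure D4:**
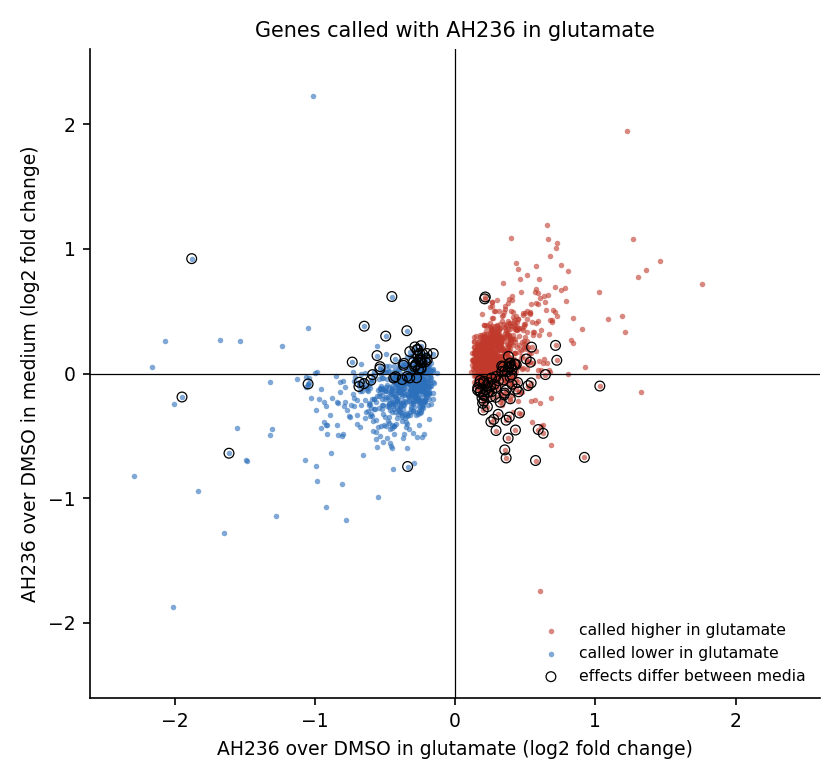
AH236 over DMSO in medium (vertical axis) against AH236 over DMSO in glutamate (horizontal axis), both as log2 fold changes, for the 1633 genes called in glutamate; circled genes are those whose effects differ between media. Of the genes called higher, 814 lie above 0 in medium, and of those called lower, 512 lie below 0.

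The 4 IDs named here, 2 in each direction, carried the largest differences among genes that averaged at least 2 CPM and whose groups did not overlap (955 higher and 588 lower genes were eligible). ENSRNOG00000016977 rose most. It stood at 113.9, 113.9 and 110.1 CPM in the AH236 glutamate libraries, against 40.96, 50.77 and 48.41 CPM in the DMSO glutamate libraries. All AH236 values lay far above all DMSO values. The log2 fold change was 1.27 ± 0.26 (SE; adjusted p = 0.00572, edgeR's quasi-likelihood test), or 2.41-fold. In medium the gene was also higher, at 85.78, 75.59 and 78.85 CPM with AH236 and 15.48, 50.62 and 47.74 CPM with DMSO, a difference of 1.08 (adjusted p = 0.0151), or 0.70 without DMSO medium replicate 1, whose 15.48 CPM was the lowest of the 24 values. The effects in the 2 media differed by 0.19 (adjusted p = 0.88), and by 0.57 without that library (adjusted p = 0.0481).

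ENSRNOG00000010970 rose at a much lower level. It stood at 3.90, 2.65 and 3.45 CPM (100, 58 and 98 counts) with AH236 in glutamate, against 1.28, 1.38 and 1.60 CPM (37, 37 and 54 counts) with DMSO. The groups did not overlap, and the log2 fold change was 1.23 ± 0.27 (SE; adjusted p = 0.00478, edgeR's quasi-likelihood test). The gene was also higher in medium (1.94, adjusted p = 0.0045, and 2.03 without DMSO medium replicate 1), where it had 22 to 34 counts with AH236 and 5 to 7 with DMSO. It was among the genes raised by glutamate in IS141 and AH609 cultures, by 1.26.

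ENSRNOG00000029264 fell most. It stood at 6.08, 4.58 and 5.63 CPM with AH236 in glutamate, against 19.11, 25.27 and 18.97 CPM with DMSO. All AH236 values lay far below all DMSO values, with a log2 fold change of -1.95 ± 0.26 (SE; adjusted p = 0.000171, edgeR's quasi-likelihood test), or 3.86-fold lower. In medium it stood at 40.66, 40.89 and 40.92 CPM with AH236 and at 26.07, 54.77 and 58.60 CPM with DMSO, and the groups overlapped (-0.19, adjusted p = 0.63, and -0.47 without DMSO medium replicate 1). The effects differed by -1.76 between media (adjusted p = 0.015), and by -1.47 without that library (adjusted p = 3.79e-05, same test). The difference between media was not called when the 4 groups, that library included, were fitted alone (adjusted p = 0.152).

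ENSRNOG00000054314 fell with little spread. It stood at 8.11, 8.19 and 8.69 CPM with AH236 in glutamate and at 27.12, 25.08 and 24.34 CPM with DMSO, without overlap. The log2 fold change was -1.61 ± 0.11 (SE; adjusted p = 1.67e-09, edgeR's quasi-likelihood test), or 3.06-fold lower. It was also lower with AH236 in medium, where it averaged 43.0 ± 1.18 CPM with AH236 and 67.0 ± 5.35 CPM with DMSO (SD, n = 3 each), but by less (-0.64), and the effects differed by -0.97 (adjusted p = 0.000993). Without DMSO medium replicate 1 these were -0.70 and -0.91. Glutamate against medium in the IS141 and AH609 cultures gave log2 fold changes of -2.71 for ENSRNOG00000029264 and -2.29 for ENSRNOG00000054314, whereas ENSRNOG00000016977 was not called there (0.20, adjusted p = 0.356).

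**Figure D5:**
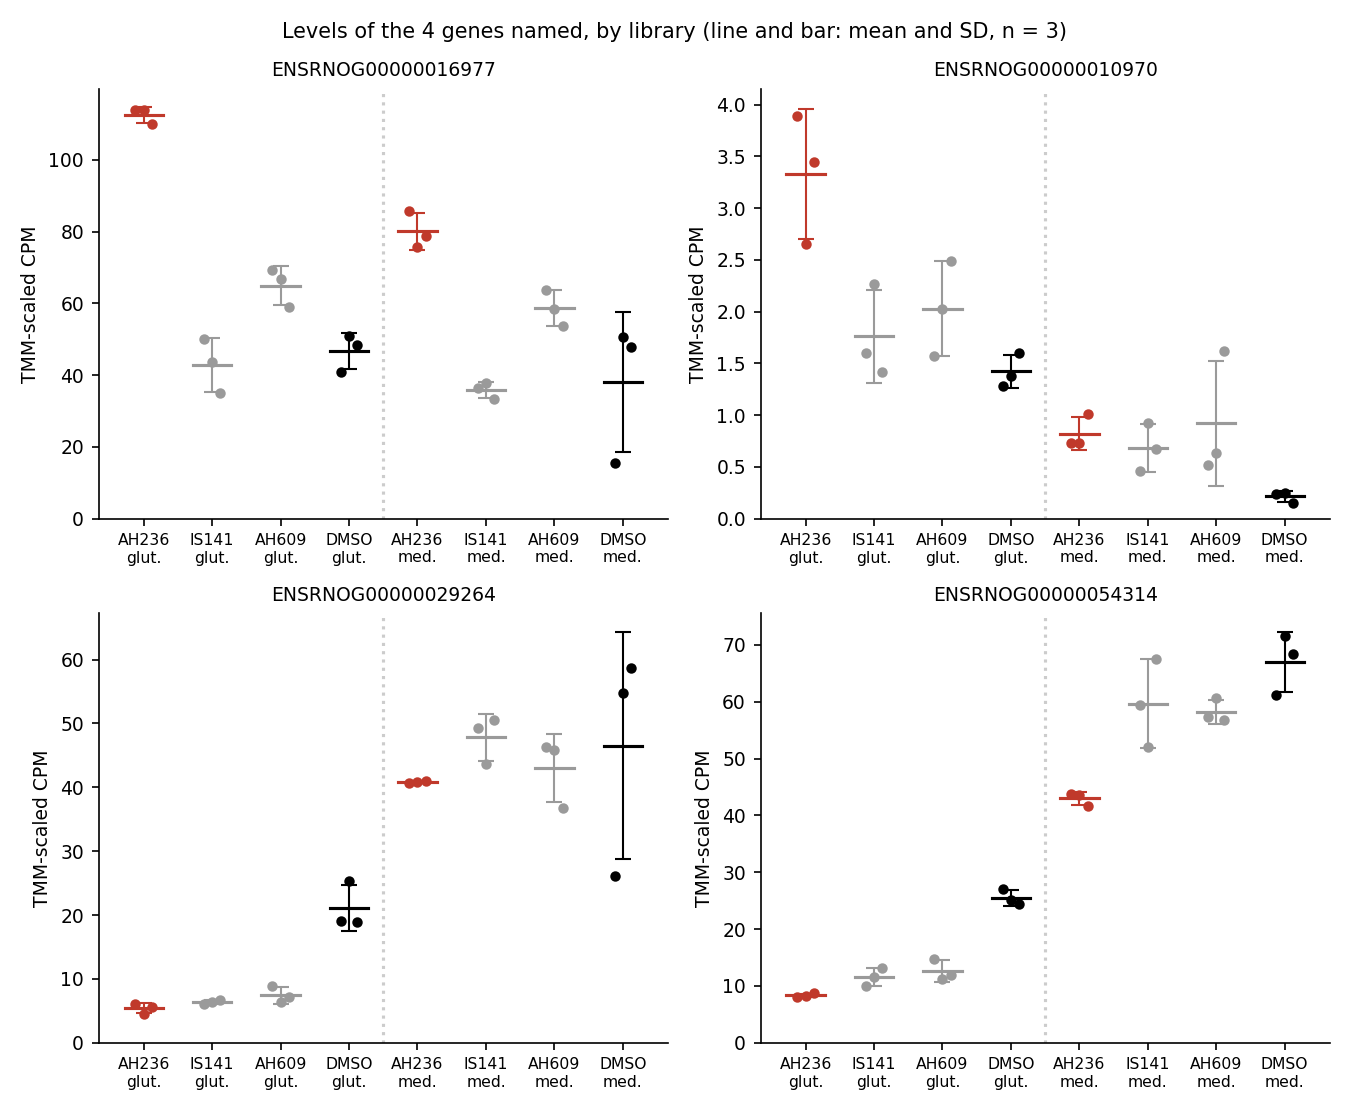
TMM-scaled CPM of the 4 genes in all 24 libraries; each point is a library, the horizontal line and bar are the mean and SD (n = 3), with glutamate groups left of the dotted line and fresh medium groups right of it. AH236 lies above all other glutamate groups for both rising genes, narrowly for ENSRNOG00000010970. For both falling genes the 3 agents lie below DMSO in glutamate, with AH236 lowest, narrowly for ENSRNOG00000029264.

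AH236 was also set against the other agents in glutamate, without DMSO libraries. Since the doses are not given, these are comparisons of groups as treated, not at matched doses. Against IS141, 1375 genes (8.64%) were called, 892 higher (5.61%) and 483 lower (3.04%) with AH236. Against AH609, 118 genes (0.742%) were called, 76 higher (0.478%) and 42 lower (0.264%), with 0 higher and 3 lower by 2-fold or more. The 2 counts were not tested against each other. Without DMSO medium replicate 1, which enters these comparisons through the shared spread only, they were 2460 against IS141 and 478 against AH609. With the 12 glutamate libraries alone they were 2171 and 394. Both settings were chosen after seeing the data. The counts also moved with single libraries. Against IS141 the count was 701 and 595 without AH236 replicates 1 and 3, and 889, 778 and 786 without IS141 replicates 1, 2 and 3. Against AH609 it was 24, 44 and 29 without AH236 replicates 1, 2 and 3, and 38 and 23 without AH609 replicates 2 and 3. Against DMSO, whose libraries these comparisons share, IS141 had 1346 genes called (8.46%; 4.07% higher, 4.39% lower) and AH609 417 (2.62%; 1.48% higher, 1.14% lower).

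Among the 4 genes, the agents differed in distinct ways. ENSRNOG00000016977 averaged 112.6 CPM with AH236, against 42.8 CPM with IS141 and 65.0 CPM with AH609. It was higher with AH236 than with IS141 by 1.39 (95% interval 0.83 to 1.96, adjusted p = 0.00403, edgeR's quasi-likelihood test), whereas the difference of 0.80 from AH609 was not called (interval 0.24 to 1.35 before adjustment, adjusted p = 0.199). That non-call rested on 1 library: the same 0.80 had an SE of 0.26 in the shared fit and of 0.10 without DMSO medium replicate 1, where it was called (adjusted p = 0.000174), as it was with the 12 glutamate libraries alone (0.79, adjusted p = 0.00436). The AH236 libraries lay above all AH609 libraries, which stood at 69.18, 66.79 and 58.91 CPM. ENSRNOG00000010970 was higher with AH236 than with IS141 by 0.93 (adjusted p = 0.0311, edgeR's quasi-likelihood test). That call was lost without AH236 replicate 1 or 3 (adjusted p = 0.139 and 0.0989) and without IS141 replicate 1 or 3 (0.106 and 0.128). The gene stood 0.71 above AH609 without passing (interval 0.16 to 1.25, adjusted p = 0.25, and 0.122 without DMSO medium replicate 1).

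For ENSRNOG00000029264 AH236 was not called different from IS141 or AH609. It averaged 5.43 CPM with AH236, 6.40 CPM with IS141 and 7.42 CPM with AH609. AH236 differed from IS141 by -0.23 (interval -0.85 to 0.39) and from AH609 by -0.45 (interval -1.06 to 0.16). Without DMSO medium replicate 1 the SEs were 0.16 for both and neither was called (adjusted p = 0.382 and 0.131), although all 3 AH236 libraries lay below all libraries of both agents. Against DMSO, whose libraries the comparisons share, IS141 and AH609 gave -1.72 and -1.50. ENSRNOG00000054314 averaged 8.33 CPM with AH236, 11.6 CPM with IS141 and 12.6 CPM with AH609. It was lower with AH236 than with either, with log2 fold changes of -0.47 against IS141 (adjusted p = 0.0111, edgeR's quasi-likelihood test) and -0.60 against AH609 (adjusted p = 0.0126). Without DMSO medium replicate 1 both calls held (adjusted p = 0.00554 and 0.00294, same test), as they did with the 12 glutamate libraries alone (0.00535 and 0.00395). All 3 AH236 libraries lay below all libraries of both agents. Leaving out some single libraries of the compared groups nevertheless lost each call. The IS141 call was lost without AH236 replicate 1 or IS141 replicate 3 (adjusted p = 0.0540 and 0.0763, same test). The AH609 call was lost without AH236 replicate 1, AH236 replicate 2 or AH609 replicate 1 (adjusted p = 0.0751, 0.0561 and 0.0652).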

How the data were processed

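RNA was sequenced from 24 libraries of rat cortical cells, prepared, per the labels' protocols, by a strand-keeping NEBNext kit. The authors deposited whole-number counts per Ensembl gene without normalization. The submitters' processing notes list RSEM 1.3.3, STAR 2.7.8a, cutadapt 2.3, bcl2fastq and FastQC 0.11.8 as tools, and Rnor_6.0 as the build. What each did, the annotation and how strand was counted are not given there. RSEM estimates counts, so genes that share reads with copies or overlapping genes are uncertain.

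Of 32754 rows, 15908 passed filterByExpr with the 8 groups. They were fitted with edgeR 4.0.16 (R 4.3.3) with TMM factors, the robust quasi-likelihood F test and 1 mean per group over all libraries (16 residual degrees of freedom, common biological coefficient of variation 7.49%). Benjamini-Hochberg adjustment ran over all genes of a comparison, with calls under 0.05. Each SE was back-calculated from the F statistic.

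Groups came from titles. A pair of AH236 glutamate titles carried the number 2, and the later one is called replicate 3. Libraries were not paired by number, and whether the cultures were paired could not be settled from the titles. The chi-square per gene within groups was 6.93 to 15.4, so none was a duplicate. The members and lists were chosen with earlier results of these data known. With no symbols, the gene lists and cell type markers could not be applied. The rule for single genes then named at most 2 IDs in each direction, by log2 fold change among called genes averaging at least 2 CPM in the 6 libraries with groups apart. The classes by glutamate response and by level were set up with the values already known. The alternatives were DESeq2 1.42.0, RLE factors, library totals, no filter, other sets of libraries, leaving out each library and a block on title number.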

Additional observations from a re-analysis of the deposited data

Results flagged for a closer look

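The AH236 difference itself differed between glutamate and fresh medium for 246 genes by edgeR's quasi-likelihood interaction test with Benjamini-Hochberg adjustment. ENSRNOG00000029264 was flagged because its log2 fold change with AH236 was lower in glutamate than in medium by 1.76 (-1.76). ENSRNOG00000054314 was flagged for the same reason, with a difference of -0.97.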

How the results depend on the processing

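The direction of all 4 genes held under every alternative tried for AH236 against DMSO in glutamate. Scaling by library totals moved the calls in glutamate to 425 higher and 1435 lower (54 lower by 2-fold or more), in medium to 548 and 1419, against IS141 to 442 and 841, and against AH609 to 36 and 84. It reversed the medians of genes raised under 2-fold by glutamate (-0.0203) and of genes over 100 CPM (-0.0047). Fitting the compared groups alone left 87 calls in medium (53 higher, 34 lower) and 18 for the difference between media (12 higher, 6 lower), with an adjusted p of 0.152 for ENSRNOG00000029264. Without DMSO medium replicate 1 in the shared fit, glutamate gave 2530 calls (1506 higher, 1024 lower, 63 lower by 2-fold or more), and all 1633 were among them. With the 12 glutamate libraries alone there were 2202 calls, 1570 of them shared. Applied to the other agents after seeing the data, the first of these settings gave 2460 calls against IS141 (1558 higher, 902 lower) and 478 against AH609 (299 and 179), and the second gave 2171 (1284 and 887) and 394 (214 and 180). DESeq2, which gave an adjusted p to 12804 genes in glutamate, made 1773 calls there, with 5 higher and 14 lower by 2-fold or more. It gave 443 for the difference between media (263 and 180). Libraries whose titles shared a number correlated at 0.02 and 0.04, and those without a number at 0.09. Pairs with unlike numbers ran from -0.11 to 0.10. The title numbers do not match between the AH236 and DMSO groups, so this cannot settle whether libraries were paired. A block on the title numbers gave 1388 calls against DMSO in glutamate and 74 against AH609 (46 higher).

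Leaving out 1 library gave 801 to 1431 calls in glutamate (511 to 865 higher, 290 to 566 lower, and by 2-fold or more 7 to 14 higher and 24 to 33 lower). In medium it gave 934 to 2229 (557 to 1050 higher, 377 to 1179 lower). For the difference it gave 77 to 496 (47 to 323 higher, 30 to 262 lower). Against IS141 it gave 595 to 1096 (413 to 762 higher, 182 to 334 lower), and against AH609 23 to 84 (11 to 55 higher, 8 to 29 lower). The difference for ENSRNOG00000016977 ran from -0.0631 to 0.567, and was -0.0631 and -0.01 without DMSO medium replicates 2 and 3. The cause of these changes was not tested. Under 1 CPM the median SE was 0.42.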
